A study of Mus musculus with 4 samples.

Results

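The genes described here encode the enzymes of oxidative phosphorylation. They were taken by symbol: every gene of the annotation whose symbol starts with Nduf, Uqcr, Atp5, Cox4, Cox5, Cox6, Cox7, Cox8, mt-Nd, mt-Co, mt-Cytb or mt-Atp. This gave 103 of 32285 genes, 90 of them nuclear and 13 encoded by mitochondrial DNA. The nuclear genes comprised 7 core subunits of complex I, 30 of its other subunits and 8 of its assembly factors, 8 genes of complex III, 20 of complex IV and 17 of the ATP synthase. Of the mitochondrially encoded genes, 7 belong to complex I, 1 to complex III, 3 to complex IV and 2 to the ATP synthase. Complex I (NADH dehydrogenase), complex III (the cytochrome bc1 complex) and complex IV (cytochrome c oxidase) pass electrons to oxygen and pump protons, and the ATP synthase uses the resulting gradient to make ATP. Each of these enzymes holds subunits encoded by both genomes, so its assembly needs transcripts from the nucleus and from mitochondrial DNA. In T cells, respiration is known to sustain memory and to fall in exhaustion, and maturing red cells are known to discard their mitochondria.

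The study asked how loss of TIM-3, an inhibitory receptor encoded by Havcr2, in donor CD8 T cells (Tc) shapes the response to leukemia after allogeneic hematopoietic cell transplantation. BALB/c mice received total body irradiation, WEHI-3B leukemia cells (a mouse myelomonocytic line), allogeneic C57BL/6 bone marrow and, on day 2, donor splenic Tc. The donors of both marrow and Tc were Havcr2fl/fl;E8icre/+ mice, in which the E8i element of the Cd8a locus drives Cre in CD8 Tc, or Havcr2fl/fl mice, which carry the same floxed alleles without Cre. Splenic cells enriched for Tc on day 23 were profiled by droplet-based 3′ single-cell RNA-seq, 2 libraries per genotype and 1 mouse per library. Adjusted p-values of the genotype contrasts within a cell type measure the spread between these 4 libraries. Those of the other contrasts measure the spread left after a block for the library. Havcr2 itself stood at 61.9, 7.66, 54.7 and 116 unique molecular identifiers (UMIs) per 1000000 UMIs (CPM) in CD8 Tc of the 4 libraries. Here and below the order is Havcr2fl/fl;E8icre/+ replicates 1 and 2, then Havcr2fl/fl replicates 1 and 2. The library labelled Havcr2fl/fl;E8icre/+ replicate 1 thus lay within the range of the Havcr2fl/fl libraries. Its replicate 2 lay below both Havcr2fl/fl libraries. Which exons are floxed is not given in the sources used here, so how fully a 3′ count reports the deletion is not known. Why the 2 Havcr2fl/fl;E8icre/+ libraries differed was not tested.

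After filtering, 11194 cells remained, with 3312, 2486, 1198 and 4198 per library. They comprised 4189 CD8 Tc, 1729 CD4 Tc and 4552 cells that were not Tc, although every library is labelled as T cells. The remaining Tc held UMIs of both or of neither of Cd8 and Cd4 and entered no comparison. The summed level of 7 Tc genes (Cd3e, Cd3d, Cd3g, Trac, Trbc2, Lck and Cd2) was 6882, 7465, 7646 and 8033 CPM in CD8 Tc and 10.0, 12.8, 3.61 and 8.24 CPM in early erythroid-like cells. The 6 library pairs shared between 1 and 10 cell barcodes. Cell classes were named from marker genes after clustering without the 103 genes and without any other mitochondrially encoded gene. The clusters were thus not drawn from the values compared here. The filter was: a limit of 10% mitochondrial UMIs acted on the mitochondrially encoded genes before clustering. It passed 11632 of 12401 barcodes in all and 4437 of 4931 in Havcr2fl/fl replicate 2. UMI counts of a 3′ assay do not scale with transcript length, so levels below are compared between cells, and between genes only as counts of captured 3′ ends.

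All 13 mitochondrially encoded genes and 86 of the 90 nuclear ones were detected with at least 3 UMIs in every library. The exceptions were 4 tissue-restricted complex IV genes: Cox7b2, Cox8b and Cox8c had 0 UMIs in every library and Ndufa4l2 had 2, 0, 0 and 2. Expressed as a mean over the classes, the most counted nuclear genes of each group were Ndufs7 (145 CPM) and Ndufv2 (122 CPM) in the complex I core, Ndufb1-ps (374 CPM) and Ndufa13 (365 CPM) among its other subunits, and Ndufaf8 (58.3 CPM) and Ndufaf4 (38.1 CPM) among its assembly factors. In complex III they were Uqcrh (683 CPM) and Uqcrq (292 CPM), in complex IV Cox4i1 (828 CPM) and Cox8a (780.4 CPM), and in the ATP synthase Atp5e (748 CPM) and Atp5h (639 CPM). Ndufb1-ps carries a pseudogene symbol, and nuclear members with processed pseudogenes may share reads with them. Among the mitochondrially encoded genes in CD8 Tc, mt-Co3 was counted most, at 7591, 6718, 4400.1 and 7228 CPM, and mt-Nd6, the member on the opposite strand to its neighbours, least, at 23.4, 40.5, 8.10 and 19.0 CPM. In the annotation mt-Atp8 overlaps mt-Atp6 by 43 bases, mt-Nd4l overlaps mt-Nd4 by 7 and mt-Atp6 overlaps mt-Co3 by 1, all on the same strand, so their counts are not fully separable. The overlap of mt-Nd5 with mt-Nd6, by 14 bases, is between opposite strands.

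The nuclear genes have known shared regulators, among them NRF1, the ETS factor GABP and YY1, and the windows around their start sites were searched for the core letters of these motifs. RefSeq (GRCm38.p6) gave a window from 250 bases before to 50 after the start for 73 of the 90 nuclear genes. The NRF1 letters, GCGCA and GCGC with any base between them, were found on either strand in 17 of 73 (23.3%), against 5.19% of 27025 genes. AAGATGGC, for YY1, was found in 11 (15.1%, against 3.19%) and CCGGAAGT, for ETS factors, in 5 (6.85%, against 4.31%). Any of the 3 was found in 31 of 73 (42.5%, against 11.7%), from 9 of 15 ATP synthase genes down to 2 of 14 complex IV genes. A match describes letters only, and a window without one says nothing about the factor. The 120 bases before the start are given here for 6 genes whose levels changed in opposite ways or stood apart in the comparisons that follow, with any motif match in capitals. Ndufs6 lies at chr13:73328483-73328602 (minus strand), Atp5g2 at chr15:102671048-102671167 (minus strand), Uqcr11 at chr10:80406822-80406941 (minus strand), Uqcrh at chr4:116075071-116075190 (minus strand), Cox6b2 at chr7:4753095-4753214 (minus strand) and Cox6b1 at chr7:30626115-30626234 (minus strand). The capitals mark the NRF1 letters in Ndufs6 (in reverse complement) and Atp5g2 (where both strands read them) and the ETS letters in Uqcr11 (as written) and Uqcrh (in reverse complement). The windows of Cox6b1 and Cox6b2, paralogs that occupy the same place in complex IV, held none of the 3.
Ndufs6: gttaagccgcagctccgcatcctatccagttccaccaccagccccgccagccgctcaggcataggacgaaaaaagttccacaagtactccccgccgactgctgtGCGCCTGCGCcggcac
Atp5g2: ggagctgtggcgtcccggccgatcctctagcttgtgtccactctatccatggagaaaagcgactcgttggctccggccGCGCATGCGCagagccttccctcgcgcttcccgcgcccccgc
Uqcr11: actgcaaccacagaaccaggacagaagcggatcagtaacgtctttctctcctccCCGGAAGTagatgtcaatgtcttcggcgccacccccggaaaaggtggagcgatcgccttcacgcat
Uqcrh: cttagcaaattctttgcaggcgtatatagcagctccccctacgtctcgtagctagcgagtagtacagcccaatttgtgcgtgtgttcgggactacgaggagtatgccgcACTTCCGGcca
Cox6b2: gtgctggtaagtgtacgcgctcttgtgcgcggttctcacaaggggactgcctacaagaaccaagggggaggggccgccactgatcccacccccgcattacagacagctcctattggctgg
Cox6b1: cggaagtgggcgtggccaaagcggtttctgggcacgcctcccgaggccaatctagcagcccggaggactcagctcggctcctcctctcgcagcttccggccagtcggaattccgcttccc

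Nuclear and mitochondrially encoded genes did not keep one ratio across the cells. In CD8 Tc as a whole, the nuclear genes took 2.25 ± 0.130% of UMIs and the mitochondrially encoded genes 2.98 ± 0.566% (mean ± SD, n = 4). Of the classes plotted, early erythroid-like cells had the highest nuclear share, 3.18 ± 0.256%, next to granulocyte-monocyte progenitor-like cells at 3.11 ± 0.225%, and these neighbours overlapped. Cycling CD8 Tc followed at 2.65 ± 0.243%. Neutrophil-like cells (1.06 ± 0.0978%) and late erythroid-like cells (0.740 ± 0.109%) had the lowest. The highest mitochondrially encoded shares belonged instead to the 2 plotted Tc states with the lowest nuclear shares, precursor exhausted (TPEX)-like CD8 Tc at 4.27 ± 1.11% and precursor or memory-like CD4 Tc at 4.25 ± 1.13%. One library set much of the spread: Havcr2fl/fl replicate 1 had the lowest mitochondrially encoded share in 17 of the 17 classes and states with at least 20 cells in each library.

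**Figure D1:**
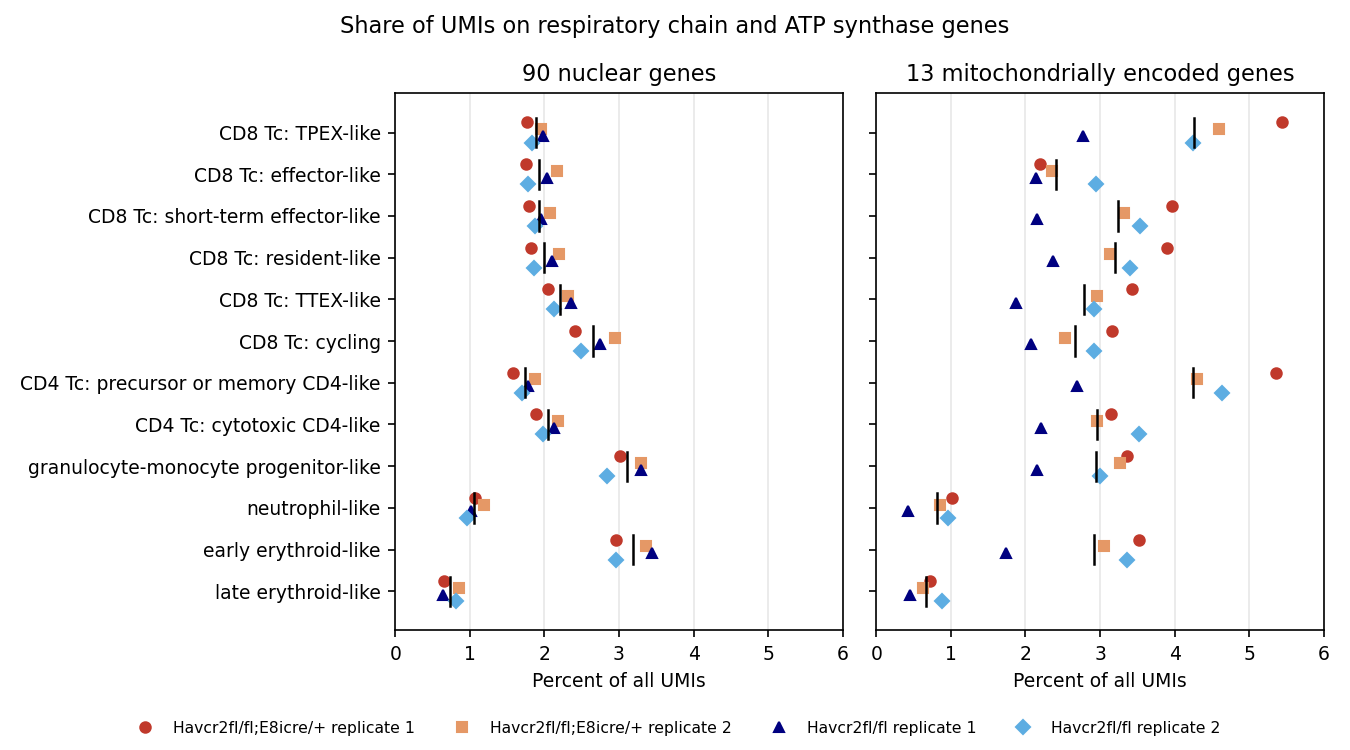
Percent of all UMIs on the 90 nuclear genes (left) and the 13 mitochondrially encoded genes (right) in each cell class, 1 point per library with a bar at the mean of 4. Nuclear shares of the plotted CD8 Tc states are lowest in TPEX-like and highest in cycling cells, mitochondrially encoded shares are highest in TPEX-like and precursor or memory CD4-like cells, and Havcr2fl/fl replicate 1 (dark triangle) lies lowest on the right in every class shown.

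TPEX cells keep the stem-like factor TCF-1 and renew the response, and terminally exhausted (TTEX) cells carry inhibitory receptors. TTEX-like cells (677) differed from TPEX-like cells (412) in opposite directions for the 2 genomes. The nuclear share was 2.05, 2.32, 2.35 and 2.13% in TTEX-like and 1.77, 1.95, 1.99 and 1.84% in TPEX-like cells, so it was 1.16 to 1.19 times as high in TTEX-like cells of the same library. The mitochondrially encoded share was 3.42, 2.96, 1.87 and 2.92% in TTEX-like and 5.44, 4.59, 2.77 and 4.25% in TPEX-like cells. It was 0.629 to 0.686 times as high in TTEX-like cells of the same library. Among the other plotted CD8 Tc states, the mean share of TTEX-like cells (2.79%) lay above effector-like (2.41%) and cycling (2.67%) cells. It lay below resident-like (3.20%) and short-term effector-like (3.24%) cells. Counted per cell, mitochondrially encoded UMIs were also fewer in TTEX-like cells (195, 206, 175 and 106) than in TPEX-like cells (248, 295, 183 and 136) in each library, although TTEX-like cells held more UMIs in total (5686, 6955, 9347 and 3625 against 4561, 6413, 6604 and 3207). TPEX-like cells also held more UMIs of the early response and heat shock genes (301, 367, 283 and 424 against 244, 273, 233 and 313 CPM), a list related to handling, and the part of this in the result was not tested.

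Of all 7836 genes tested, 11.9% fell in TTEX-like against TPEX-like cells (edgeR with Benjamini-Hochberg adjustment). Of the mitochondrially encoded genes 13 of 13 fell, and each was lower in 4 of 4 libraries. Their median log2 change was -0.62, against -0.01 over all genes. In complex I, mt-Nd4 stood at 1530.0, 1503, 822 and 1240.3 CPM in TTEX-like and 2784, 2287, 1306 and 2139.7 CPM in TPEX-like cells, a log2 change of -0.70 ± 0.09 (SE, adjusted p = 9.40e-09). The 2 steepest changes belonged to thinly counted genes. For mt-Nd6 the values were 15.7, 39.5, 0 and 20.9 CPM against 44.2, 74.0, 25.7 and 21.7 CPM (-1.18 ± 0.28, adjusted p = 0.00112). For mt-Atp8, an accessory subunit of the ATP synthase, they were 44.6, 81.8, 22.5 and 27.8 CPM against 91.8, 152, 106 and 56.3 CPM (-1.14 ± 0.17, adjusted p = 4.31e-07). Of the complex IV genes, mt-Co1, the catalytic subunit, stood at 6589, 5262, 4056 and 5049 CPM against 10922, 8663, 6226 and 7251 CPM (-0.62 ± 0.09, adjusted p = 1.59e-07), and in each library the TTEX-like value was the lower. The shallowest change of the 13 was that of mt-Co2 (-0.48 ± 0.08). The remaining log2 changes were -0.50 for mt-Nd1, -0.73 for mt-Nd2, -0.67 for mt-Nd3, -0.59 for mt-Nd4l, -0.79 for mt-Nd5, -0.56 for mt-Cytb, -0.50 for mt-Co3 and -0.62 for mt-Atp6. Cells with more than 10% mitochondrial UMIs had been removed; with a limit of 5% the median was -0.42 and 11 of 13 fell, mt-Nd3 and mt-Nd6 missing the threshold. Without Havcr2fl/fl;E8icre/+ replicate 2, mt-Nd4l changed by -0.42 and missed it.

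Of the nuclear genes, 34 of 80 tested rose in TTEX-like cells, where 12.2% of all genes rose, and 2 fell. Their median log2 change was 0.22. The calls were uneven between roles. Complex IV subunits rose in 10 of 12 tested and ATP synthase subunits in 11 of 17. Complex III genes rose in 3 of 8 and the nuclear subunits of complex I outside its core in 10 of 30. Of the 7 nuclear core subunits of complex I 0 rose (0 in DESeq2 and 0 at an unadjusted p under 0.05). For so few genes this is near the 12.2% of all genes. The 2 most counted genes stood at 145 and 122 CPM in the core and at 828 and 780 CPM in complex IV. The part of this depth in the calls was not tested. Cox5a, a nuclear subunit of complex IV, stood at 382, 375, 445 and 454 CPM in TTEX-like and 223, 229, 231 and 394 CPM in TPEX-like cells (0.72 ± 0.10, adjusted p = 2.00e-07, higher in 4 of 4 libraries). Ndufs6, a subunit of complex I near its core, stood at 200.4, 179, 191 and 218 CPM against 131, 136, 129 and 78.0 CPM (0.72 ± 0.13, adjusted p = 2.74e-05, 4 of 4). Ndufb1-ps changed by 0.63 ± 0.09 (adjusted p = 1.86e-07, 4 of 4). Uqcrfs1, the Rieske iron-sulfur protein of complex III, stood at 109, 97.3, 103 and 115 CPM against 73.1, 53.3, 62.9 and 121 CPM (0.63 ± 0.15, adjusted p = 0.00143), higher in 3 of 4 libraries, and missed the threshold without Havcr2fl/fl;E8icre/+ replicate 2 (log2 0.46). Among the most counted members, Cox4i1 (0.34), Cox8a (0.46), Atp5e (0.40), Uqcrh (0.21), Uqcrq (0.35) and Ndufa13 (0.43) rose too. Both genes that fell were complex I assembly factors. Ndufaf4 stood at 34.5, 32.4, 13.1 and 22.0 CPM against 44.2, 47.4, 51.4 and 52.0 CPM (-0.73 ± 0.23, adjusted p = 0.0141) and Ndufaf2 at 21.4, 25.4, 28.2 and 13.9 CPM against 28.9, 36.5, 77.1 and 34.7 CPM (-0.79 ± 0.27, adjusted p = 0.0263), each lower in 4 of 4 libraries. Without Havcr2fl/fl replicate 1 or without replicate 2, neither passed (Ndufaf4 -0.54 and -0.62, Ndufaf2 -0.54 and -0.68).

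**Figure D2:**
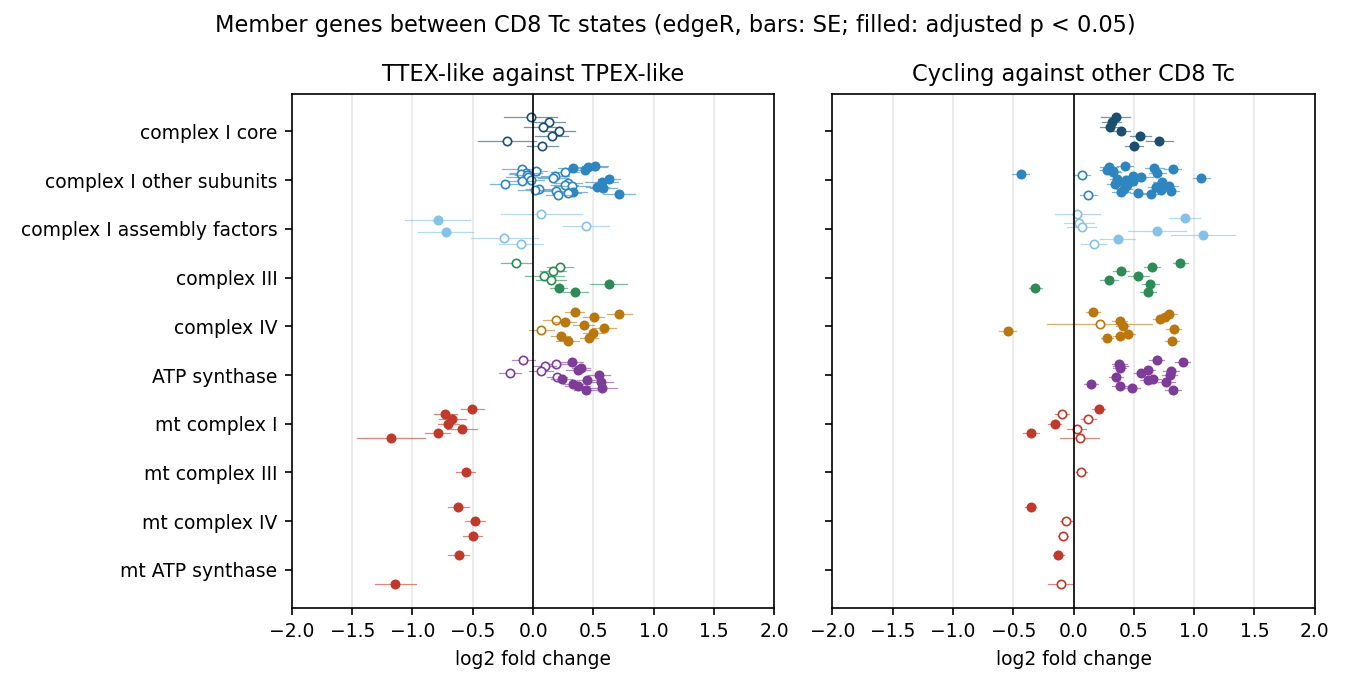
Log2 fold changes (edgeR, bars: SE with the library as a block) of each gene tested between CD8 Tc states, grouped by role. Filled points mark adjusted p under 0.05. In TTEX-like against TPEX-like cells (left) all 13 mitochondrially encoded genes lie left of 0 and most nuclear complex IV and ATP synthase genes right of it, and in cycling against other CD8 Tc (right) the nuclear genes lie right of 0 with 3 filled exceptions.

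Short-term effector-like cells (385), which carry Klrg1 and Cx3cr1, held 1.79, 2.08, 1.96 and 1.87% nuclear and 3.96, 3.32, 2.16 and 3.53% mitochondrially encoded UMIs. Of the mitochondrially encoded genes 11 of 13 fell, where 7.77% of all genes fell, with a median log2 change of -0.38, and of the nuclear genes 11 of 80 rose, where 8.63% of all genes rose, and 2 fell. Both this comparison and that of TTEX-like cells use the TPEX-like cells. Atp5mpl, a small subunit of the ATP synthase, stood at 221, 261, 307 and 163 CPM against 127, 149, 251 and 104 CPM (0.76 ± 0.13, adjusted p = 9.44e-06, 4 of 4 libraries), and Atp5h (0.51), Cox5a (0.58) and Uqcrfs1 (0.62) also rose. Ndufaf3, a complex I assembly factor (-0.83), and Ndufab1, the mitochondrial acyl carrier protein (-0.49), fell, but Ndufaf3 missed the threshold without any single library and Ndufab1 without either Havcr2fl/fl;E8icre/+ library. Uqcrfs1 missed it without Havcr2fl/fl;E8icre/+ replicate 2 (0.38). Without Havcr2fl/fl;E8icre/+ replicate 2, 3 nuclear and 3 mitochondrially encoded genes passed; without its replicate 1, 8 and 6; and without a limit on mitochondrial UMIs, 1 nuclear gene of 80 rose and 7 fell, where 5.6% of all genes rose and 8.53% fell.

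Precursor or memory-like CD4 Tc (291 cells) had mitochondrially encoded shares of 5.36, 4.30, 2.69 and 4.64% and nuclear shares of 1.59, 1.87, 1.79 and 1.70%, and cytotoxic-like CD4 Tc (258 cells) had 3.14, 2.96, 2.21 and 3.52% and 1.88, 2.19, 2.12 and 1.98%. In each library the precursor or memory-like cells were higher in the first and lower in the second, a difference that was not tested. Among CD8 Tc, effector-like cells (377) had mitochondrially encoded shares of 2.20, 2.36, 2.14 and 2.95% and resident-like cells (1177) of 3.90, 3.14, 2.37 and 3.40%. Taking all cells of each lineage, 25 of 83 nuclear genes were higher in CD8 than in CD4 Tc, where 12.4% of all genes were higher. None was lower (also 0 in DESeq2, and 1 at an unadjusted p under 0.05). The differences were small, with a median log2 of 0.12, and 9 of the 13 complex IV genes tested were among the 25. The lineages differed in cycling cells, which numbered 735 of 4189 CD8 Tc and 139 of 1729 CD4 Tc. As a mean of 4 libraries, the nuclear share was 2.25% in all CD8 Tc, 2.08% in CD8 Tc not cycling and 2.10% in all CD4 Tc. The part of cycling cells in the difference between the lineages was not tested. Cox8a stood at 855, 1066, 979.8 and 822 CPM in CD8 and 732, 823, 799 and 636 CPM in CD4 Tc (0.37 ± 0.05, adjusted p = 0.000140), and Ndufa4, now counted as a complex IV subunit, at 466, 523, 470.4 and 491 CPM against 363, 409, 416 and 371 CPM (0.37 ± 0.06, adjusted p = 0.000362), each higher in 4 of 4 libraries. Cox7a2 (0.36) and Ndufab1 (0.32) followed. Of the mitochondrially encoded genes 2 of 13 were higher, mt-Nd1 (0.18) and mt-Nd3 (0.17). Fewer nuclear genes passed without Havcr2fl/fl;E8icre/+ replicate 1 (13), without its replicate 2 (13) or without Havcr2fl/fl replicate 1 (15), and 0, 1 and 0 mitochondrially encoded genes did.

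Cycling CD8 Tc (735 cells in S, G2 or M phase) carried more nuclear respiratory chain transcript than the other CD8 Tc (3454). Their nuclear share was 2.41, 2.94, 2.75 and 2.49%, against 1.93, 2.20, 2.20 and 2.00%, and 73 of 83 genes tested rose, where 28.5% of all genes rose. Of the nuclear genes, all 17 of the ATP synthase and all 7 core subunits of complex I rose. With them rose 27 of its 30 other nuclear subunits, 4 of 8 assembly factors, 7 of 8 complex III genes and 11 of 13 complex IV genes. Ndufab1 stood at 224, 204, 173 and 263 CPM in cycling and 108, 98.7, 106 and 142 CPM in other CD8 Tc (1.06 ± 0.07, adjusted p = 1.97e-11), and Atp5b, the catalytic beta subunit of the ATP synthase, at 530.0, 559, 483 and 643 CPM against 322, 303, 289 and 363 CPM (0.90 ± 0.06, adjusted p = 1.65e-11). Neither gene overlapped between the cell groups, but both were named for their large rise, and non-overlap was not counted over all genes. The assembly factors Ndufaf6 (1.07 ± 0.27, adjusted p = 0.00165) and Ndufaf2 (0.92 ± 0.13, adjusted p = 1.94e-06) rose in 4 of 4 libraries. Ndufaf6 was thinly counted, at 9.15, 9.08, 7.01 and 10.5 CPM in cycling and 4.88, 4.56, 4.85 and 4.24 CPM in other CD8 Tc.

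In all, 3 nuclear genes fell in cycling CD8 Tc, where 25.3% of all genes fell. Cox7a2l, which helps to join complexes III and IV into supercomplexes, stood at 203, 204, 229 and 238 CPM against 342, 349, 302 and 374 CPM (-0.55 ± 0.07, adjusted p = 5.00e-07). Ndufa6 (-0.44 ± 0.07, adjusted p = 1.77e-05) and Uqcrh, the hinge protein of complex III (722, 666, 727 and 597 CPM against 956, 899.9, 919.9 and 866 CPM, -0.32 ± 0.06, adjusted p = 4.30e-05), were also lower in 4 of 4 libraries. Of the mitochondrially encoded genes, 1 of 13 rose and 4 fell, with a median log2 of -0.09. Here mt-Co1 fell, at 5096, 4029.9, 3885 and 4173 CPM against 7247, 6216, 4769 and 5656 CPM (-0.36 ± 0.04, adjusted p = 5.08e-07), as did mt-Nd5 (-0.36), mt-Nd4 (-0.16) and mt-Atp6 (-0.13), while mt-Nd1 rose (0.21) in 3 of 4 libraries. The 3 smallest of these were lost without 1 library: mt-Nd4 (-0.12) and mt-Atp6 (-0.08) without Havcr2fl/fl;E8icre/+ replicate 2, and mt-Nd1 without its replicate 1 (0.16) or without Havcr2fl/fl replicate 2 (0.13). Cycling cells held 10294, 14853, 17465 and 6996 UMIs per cell, against 4489, 6227, 7129 and 2997, and the part of this depth in the shares was not tested.

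Among the cells that were not Tc, 1730 early erythroid-like cells (marked by Car1, Car2, Kit and Gata1) formed the largest class. They held 31532, 48185, 49477 and 22613 UMIs per cell. Against CD8 Tc, 57 of 84 nuclear genes rose, where 35% of all genes rose, and 9 fell, where 45.2% of all genes fell; their median log2 change was 0.47, and that of all genes -0.18. All 7 nuclear core subunits of complex I, 6 of 8 of its assembly factors and 7 of 8 nuclear complex III genes rose. Uqcr11, a small subunit of complex III, stood at 618, 852, 877 and 437 CPM against 171, 223, 225 and 123 CPM in CD8 Tc (1.81 ± 0.13, adjusted p = 1.10e-14). Atp5g1, which encodes the c subunit of the rotor, stood at 1036, 1034, 915 and 1196 CPM against 285, 287, 249 and 357 CPM (1.75 ± 0.13, adjusted p = 2.91e-14), and Ndufaf6 at 24.7, 32.4, 23.5 and 26.1 CPM against 6.54, 5.78, 5.32 and 6.41 CPM (2.03 ± 0.16, adjusted p = 1.07e-13). Each was higher in 4 of 4 libraries with no overlap. These genes were named for their large rise, and non-overlap was not counted over all genes. Of those that fell, Uqcrh stood at 636, 669, 619 and 607 CPM against 865, 837, 878 and 773 CPM (-0.49 ± 0.11, adjusted p = 0.000105), so that Uqcr11 and Uqcrh of the same complex moved apart. The complex I subunits Ndufa13 (-0.77), Ndufv3 (-0.68) and Ndufa1 (-0.48) were lower as well.

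The mitochondrially encoded genes did not share this gain. Their share in early erythroid-like cells was 3.52, 3.06, 1.74 and 3.36%. Against CD8 Tc 0 of 13 rose (also 0 in DESeq2 and 0 at an unadjusted p under 0.05), where 35% of all genes rose. In all, 4 of 13 fell, a smaller share than the 45.2% of all genes, and their median log2 of -0.17 was close to the -0.18 of all genes. Those that fell were mt-Nd6 (-1.36 ± 0.13, adjusted p = 2.93e-11), mt-Nd5 (-0.54), mt-Co1 (-0.50) and mt-Atp8 (-0.33), each lower in 4 of 4 libraries. At a higher clustering resolution 68 nuclear genes rose and 2 fell, where 42.8% of all genes rose and 37.4% fell and the median of all genes was 0.09 instead of -0.18. In that setting Uqcrh (-0.24), Ndufa1 (-0.23), mt-Co1 (-0.25) and mt-Atp8 (-0.07) no longer passed, and the median of the mitochondrially encoded genes was 0.09 instead of -0.17, a shift close to that of all genes.

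Cox6b2 showed the largest log2 difference of any member between early erythroid-like cells and CD8 Tc. It encodes the isoform of the COX6B subunit that is known from testis, and its paralog Cox6b1 serves most tissues. In early erythroid-like cells Cox6b2 stood at 171, 207, 227 and 155 CPM and in CD8 Tc at 2.75, 1.88, 4.30 and 5.34 CPM, a log2 difference of 5.72 ± 0.20 (SE, adjusted p = 8.12e-24, 4 of 4 libraries). The erythroid-like classes together held 10256 of the 11946 Cox6b2 UMIs of all kept cells, and Tc held 79 (CD8) and 33 (CD4). As a mean of 4 libraries it stood at 209 CPM in unstaged, 119 CPM in intermediate and 73.6 CPM in late erythroid-like cells. It stood at 122 CPM (916 UMIs) and 116 CPM (243 UMIs) in clusters 4 and 15 outside the Tc, which stayed unnamed, at 36.9 CPM in basophil or mast-like, 21.2 CPM in granulocyte-monocyte progenitor-like, 7.39 CPM in neutrophil-like and 1.70 CPM in dendritic-like cells. Cox6b1 was counted in every class, at 567, 690.0, 728 and 482 CPM in early erythroid-like cells and 421, 515, 515 and 395 CPM in CD8 Tc (0.32 ± 0.12, adjusted p = 0.0124). In late erythroid-like cells the 2 isoforms came close, with 243 UMIs of Cox6b2 and 448 of Cox6b1. Free RNA in droplets was not removed, and the 1.88 to 5.34 CPM of Cox6b2 in CD8 Tc lie within a class in which hemoglobin RNA was also counted (3432, 2944, 6042 and 1415 CPM). Of the other tissue-restricted isoforms, Cox4i2 had 135 UMIs in all kept cells, 76 of them in granulocyte-monocyte progenitor-like cells. The 98 plasma cell-like cells held 41, beside 594 UMIs of Cox4i1. The mean of 4 libraries in plasma cell-like cells was 57.6 CPM beside 313 CPM for Cox4i1. That mean gives equal weight to Havcr2fl/fl replicate 1, which held only 2 such cells. Cox7a1 had 102 UMIs, 49 of them in CD8 Tc, and Cox6a2 had 34.

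**Figure D3:**
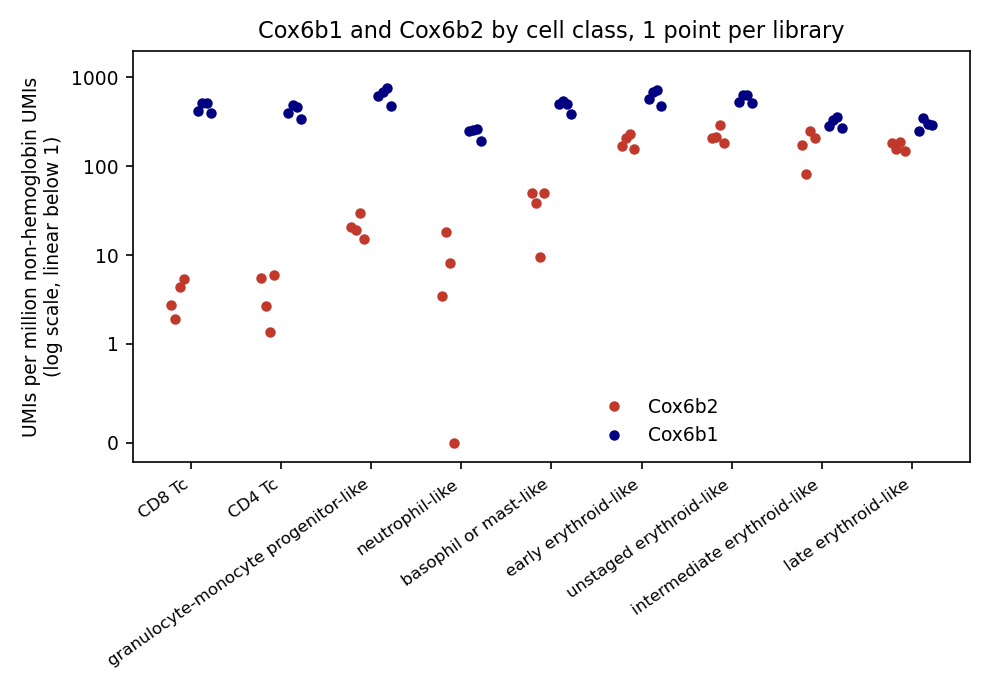
Cox6b2 (red) and Cox6b1 (blue) in CPM of the non-hemoglobin UMIs (log axis, linear below 1) by cell class, 1 point per library. Cox6b2 is at most 5.89 in CD8 and CD4 Tc and at least 82.1 in the 4 erythroid-like classes, where it comes closest to Cox6b1 in intermediate and late cells.

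In late erythroid-like cells (676; marked by Alas2, Slc4a1 and Bnip3l) hemoglobin took 54.7%, 54.3%, 61.9% and 53.2% of UMIs, so levels at this stage are given as CPM of the non-hemoglobin UMIs. On that scale the nuclear genes held 1.44, 1.87, 1.68 and 1.74% and the mitochondrially encoded genes 1.60, 1.37, 1.18 and 1.89%, which was 0.485 to 0.586 and 0.449 to 0.676 times their share in early cells of the same library. Relative to the other genes of the fit (edgeR with TMM scaling), 45 of 84 nuclear genes fell and 18 rose from early to late cells, where 36.9% and 23.9% of all genes did, with a median log2 of -0.41 against -0.75 for all genes. With library sizes without hemoglobin and no TMM, 70 fell and 4 rose, where 54.0% and 17.2% of all genes did, with a median of -1.26 against -1.499 for all genes. The 4 that rose under both scalings were Atp5l, Ndufb11, Ndufb9 and Uqcrh, and the same 45 fell under both. Which scaling is used therefore decides the direction of members near the middle. Genes are called risen or fallen from early to late cells only where both scalings passed in the same direction. Unless said otherwise, log2 changes between these stages are on the TMM scale. They therefore differ from those that the CPM of the non-hemoglobin UMIs beside them would give.

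The steepest losses included assembly factors of complex I and single subunits of the ATP synthase and complex I. The assembly factor Ndufaf5 had 396 UMIs in early and 0 in late cells, at least 4.05-fold lower (3 counts over the late cells as the floor). Ndufaf6 fell from 1272 UMIs to 1 (39.0-fold, exact Poisson 95% interval 6.99 to 1543) and Ndufaf7 from 1782 to 1 (54.7-fold, 9.80 to 2161), intervals that cover counting error only. Ndufaf4 stood at 117, 122, 95.03 and 92.1 CPM in early cells and at 19.4, 4.49, 8.58 and 4.84 in late cells. In the ATP synthase, Atp5g2 went from 789.5, 707, 802 and 872 CPM to 34.9, 13.5, 20.01 and 62.9 and Atp5g1 from 1037, 1035, 919 and 1198 to 38.8, 58.4, 42.9 and 114, both genes of the rotor's c subunit, with log2 changes of -3.78 ± 0.23 (adjusted p = 2.05e-16) and -3.19 ± 0.18 (adjusted p = 1.24e-17). Ndufb5 of complex I, chosen like Atp5g1 after its values were seen, went from 292, 288, 247 and 351 CPM to 11.6, 8.99, 11.4 and 38.7 (-3.20 ± 0.22, adjusted p = 6.76e-15). The stages did not overlap in these genes, but the genes were named for their steep falls. Non-overlap was not counted over all genes.

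The exceptions kept or gained their place. Atp5l, a membrane subunit of the ATP synthase, stood at 904, 1254, 1046 and 702 CPM in late and 574, 707, 759 and 461 in early cells, higher in late cells of 4 of 4 libraries (1.49 ± 0.12, adjusted p = 3.83e-13; 0.64 without hemoglobin and TMM, adjusted p = 3.90e-06). Ndufb11 stood at 353, 407, 346 and 387 against 228, 214, 239 and 251 CPM (1.53 ± 0.12; 0.69), Ndufb9 at 644, 751, 738 and 898 against 591, 552, 549 and 699 (1.19 ± 0.13; 0.35) and Uqcrh at 764, 789, 812 and 722 against 637, 670.1, 622 and 608 (1.13 ± 0.11; 0.28, adjusted p = 0.0233), each higher in late cells of 4 of 4 libraries. Cox6b2 stood at 182, 157, 186 and 148 against 171, 208, 228 and 156 CPM, so the stages overlapped.

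The mitochondrially encoded genes split by gene. Under both scalings 7 of 13 fell and 1 rose. With TMM 7 fell and 1 rose, where 36.9% and 23.9% of all genes did. Without TMM 10 fell and 1 rose, where 54.0% and 17.2% of all genes did. In complex I, mt-Nd1 went from 2553, 2319, 921 and 2044 CPM in early to 213, 169, 366 and 300.2 in late cells (-1.88 ± 0.28, adjusted p = 6.39e-07) and mt-Nd3 from 436, 791, 272 and 249.8 to 34.9, 20.2, 80.1 and 36.3 (-2.40 ± 0.30, adjusted p = 2.25e-08). mt-Nd4l (-2.61), mt-Nd2 (-1.80), mt-Nd4 (-1.31) and mt-Nd5 (-0.78) fell with them, mt-Nd5 missing the threshold without Havcr2fl/fl;E8icre/+ replicate 2 (-0.47). In complex III, mt-Cytb went from 4418, 3804, 2515 and 4658 to 566, 306, 855 and 840.1 CPM (-1.68 ± 0.24, adjusted p = 2.59e-07). By contrast mt-Co1 rose, from 5124, 4340.4, 2707 and 4488 to 6570.4, 5969, 4160.2 and 6496 CPM, higher in late cells of 4 of 4 libraries (1.33 ± 0.16, adjusted p = 3.73e-09; 0.49 without hemoglobin and TMM, adjusted p = 0.00447). Values for mt-Co2 were 4734, 4008, 2378 and 4804 in early and 2284, 2198, 1736 and 3116 in late cells, a log2 change of 0.10 with TMM and of -0.74 without, so no direction is given. mt-Co3 (-0.28 and -1.11) and mt-Atp6 (-0.23 and -1.07) passed only without TMM, and mt-Atp8 (0.40 and -0.47) and mt-Nd6 (0.85 and -0.02) under neither.

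**Figure D4:**
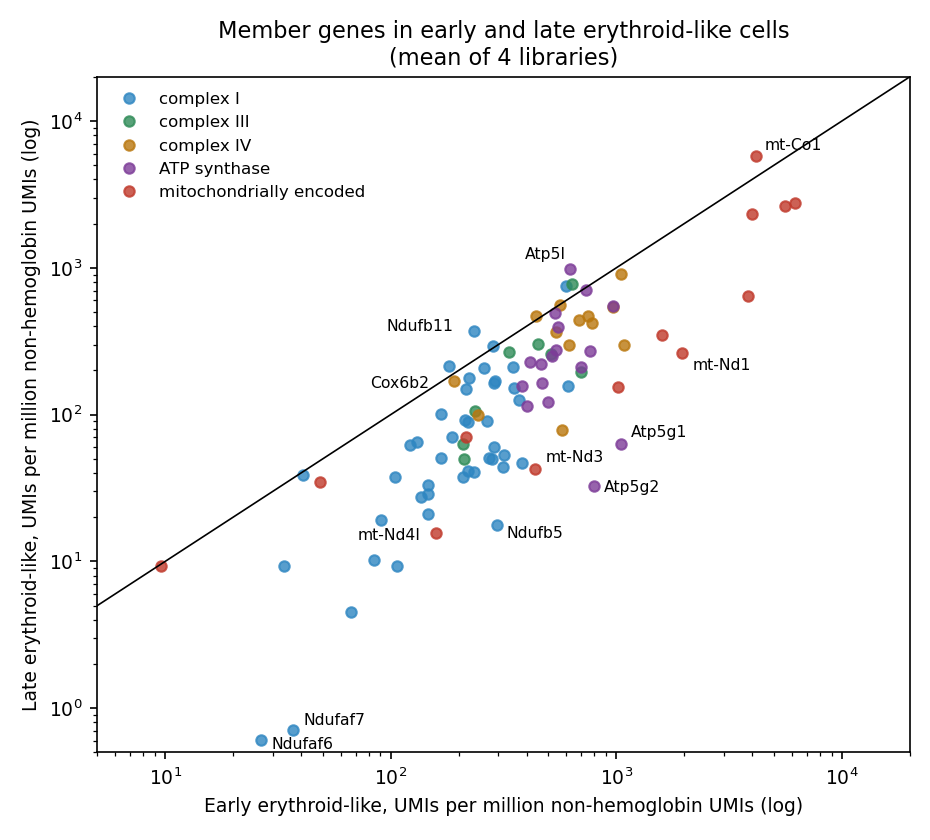
Mean of 4 libraries in early (x axis) and late (y axis) erythroid-like cells, in CPM of the non-hemoglobin UMIs on log axes, with the line of equal levels, for the 95 of 103 genes with at least 5 CPM in early and any UMI in late cells. Ndufaf5, with 0 late UMIs, and the 7 genes under 5 CPM in early cells have no point. Most genes plotted lie below the line, Ndufaf6 and Ndufaf7 lowest of them, and mt-Co1, Atp5l and Ndufb11 lie above it while mt-Nd1, mt-Nd3 and mt-Nd4l lie far below.

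Granulocyte-monocyte progenitor-like cells (325; Mpo, Elane and Prtn3) also carried more nuclear transcript of these genes than CD8 Tc. Against CD8 Tc, 64 of 84 rose, where 34.4% of all genes rose, and 5 fell, where 38.3% of all genes fell, with a median log2 of 0.62 against -0.06 for all genes. This comparison and that of early erythroid-like cells share the CD8 Tc. Ndufaf6 stood at 30.7, 27.3, 24.1 and 38.5 CPM (2.27 ± 0.17, adjusted p = 7.03e-14), Uqcr11 at 435, 565, 628 and 308 CPM (1.35 ± 0.13, adjusted p = 3.09e-11) and Atp5g1 at 759.6, 721, 661 and 909.8 CPM (1.35 ± 0.13, adjusted p = 3.09e-11). Cox6b2 was higher than in CD8 Tc at 20.97, 19.1, 29.6 and 15.1 CPM (2.63 ± 0.24, adjusted p = 1.41e-11). Each of these was higher in 4 of 4 libraries. Uqcrh (563, 527, 514 and 480.4 CPM, -0.71 ± 0.11, adjusted p = 5.43e-07) was again lower in 4 of 4, with Ndufv3 (-0.54), Ndufa13 (-0.45) and Cox7a2l (-0.42). Of the mitochondrially encoded genes, mt-Nd3 rose (0.47) in 4 of 4 libraries and mt-Nd6 fell (-0.35) in 3 of 4; without any of 3 libraries (both Havcr2fl/fl;E8icre/+ replicates and Havcr2fl/fl replicate 2) 0 of 13 passed, and without Havcr2fl/fl replicate 1, 3 did. Without a limit on mitochondrial UMIs mt-Nd6 changed by 0.08.

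Between the genotypes no member passed the test. In CD8 Tc, where the deletion was directed, 0 of 84 nuclear and 0 of 13 mitochondrially encoded genes passed, and 0.0185% of all 10824 genes were higher and 0.00924% lower in Havcr2fl/fl;E8icre/+. At an unadjusted p under 0.05 there were 1 nuclear and 2 mitochondrially encoded genes, and DESeq2 called 0. In CD4 Tc, which E8i-Cre does not target, 0 of 83 and 0 of 13 passed (0 and 1 unadjusted, 0 in DESeq2; 0% of all 9570 genes in either direction). In erythroid-like cells 0 of 83 and 0 of 13 passed (1 and 2 unadjusted, 0 in DESeq2; 0.0287% of all 10449 genes higher and 0% lower). The test of the difference between the genotype effects in CD8 and CD4 Tc called 0 of 83 and 0 of 13 (0 unadjusted, 0 in DESeq2; 0.0184% of all 10868 genes in each direction). With 2 mice per genotype, the median SE of a nuclear gene's log2 difference in CD8 Tc was 0.22, which limits what could be detected. Of the Havcr2fl/fl;E8icre/+ libraries, only replicate 2 had Havcr2 below both Havcr2fl/fl libraries in CD8 Tc.

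The mitochondrially encoded genes were on the Havcr2fl/fl;E8icre/+ side of 0 in each of these cell types, with median log2 differences of 0.41 in CD8 Tc, 0.38 in CD4 Tc and 0.47 in erythroid-like cells. Without Havcr2fl/fl replicate 1 the medians were 0.12, 0.03 and -0.01. Among these genes mt-Nd3 had small unadjusted p-values in all 3 cell types and stood at 407, 694, 343 and 237 CPM in CD8 Tc (0.90 ± 0.31, unadjusted p = 0.0145, adjusted p = 1.00), 377, 651, 297 and 225 CPM in CD4 Tc (0.94 ± 0.30, adjusted p = 1.00) and 393, 626, 181 and 221 CPM in erythroid-like cells (1.24 ± 0.32, adjusted p = 0.9504). Both Havcr2fl/fl;E8icre/+ libraries were above both Havcr2fl/fl libraries in each. The 3 cell types come from the same mice, so they do not repeat each other independently. How many of all genes part the libraries in this way was not counted. Not all genes ranked the libraries alike: in CD8 Tc mt-Nd3, mt-Nd4l, mt-Nd6 and mt-Atp8 were highest in Havcr2fl/fl;E8icre/+ replicate 2, whereas mt-Co1, mt-Co2, mt-Co3 and mt-Atp6 were highest in its replicate 1. mt-Nd6 stood at 23.4, 40.5, 8.10 and 19.0 CPM (1.19 ± 0.39, unadjusted p = 0.0121, adjusted p = 1.00). Without a filter on low counts, mt-Nd3 (0.92, adjusted p = 0.0165) and mt-Nd6 (1.203, adjusted p = 0.000666) passed in CD8 Tc, and both passed in erythroid-like cells. Calls over all genes rose in that setting too. In CD8 Tc 0.274% of 17140 genes were higher and 0.286% lower (0.0185% and 0.00924% with the filter). In erythroid-like cells 0.351% and 0.267% of 16829 were (0.0287% and 0% with the filter). The nuclear genes with the smallest unadjusted p were Cox6b2 in CD8 Tc (log2 -1.08 ± 0.43, adjusted p = 1.00) and Ndufv1, the NADH-binding subunit of complex I, in erythroid-like cells (-0.44 ± 0.18, adjusted p = 0.972).

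**Figure D5:**
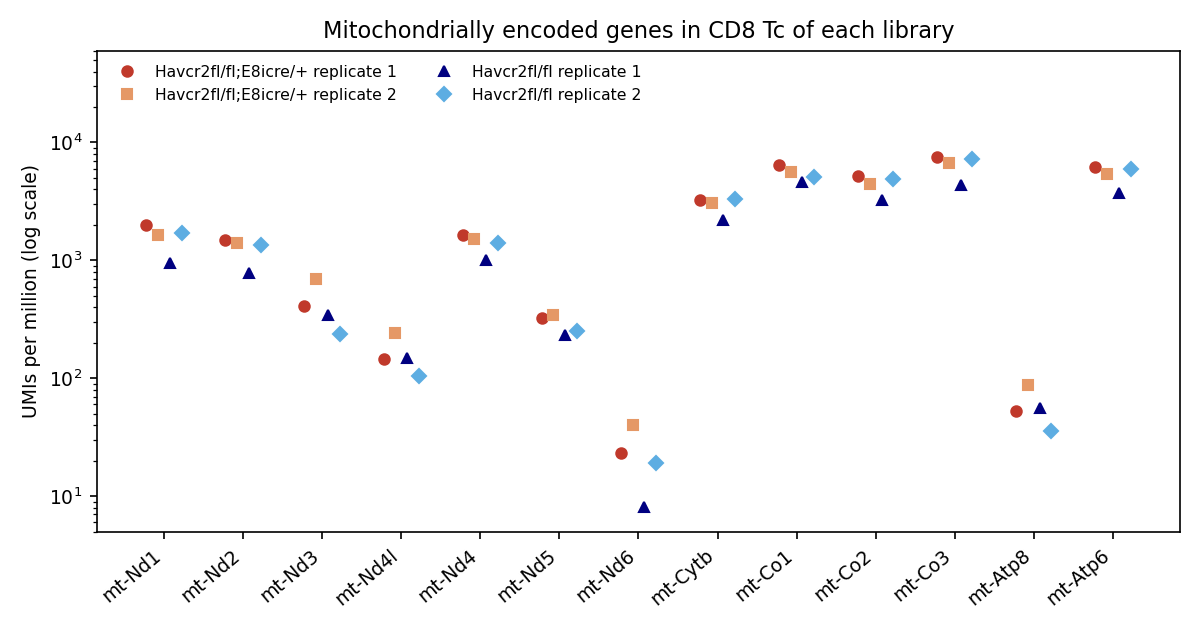
CPM (log axis) of the 13 mitochondrially encoded genes in CD8 Tc, 1 symbol per library. Havcr2fl/fl replicate 1 (dark triangle) lies lowest for mt-Co1, mt-Co2, mt-Co3, mt-Cytb and mt-Atp6, and Havcr2fl/fl;E8icre/+ replicate 2 (square) lies highest for mt-Nd3, mt-Nd4l, mt-Nd6 and mt-Atp8.

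Other genes of the pathway are given as lists. Over all genes 28.5% rose and 25.3% fell in cycling CD8 Tc, 35% and 45.2% in early erythroid-like cells against CD8 Tc, and 12.2% and 11.9% in TTEX-like against TPEX-like cells. The citric acid cycle (13 genes), which supplies NADH to complex I, rose in 10 of 13 in cycling CD8 Tc and 12 of 13 in early erythroid-like cells. In TTEX-like against TPEX-like cells 1 of 13 rose (Idh3a, 0.88) and 1 fell (Suclg1, -0.63), for so few genes near the shares of all genes. Genes of complex II and the mobile carriers (9) rose in 7 and 6 and, in TTEX-like cells, in 3: Cycs, cytochrome c (0.91), Etfb (0.86) and Sdhb (0.40), while Sdha fell (-0.41). Mitochondrial ribosomal proteins (78), which translate the mitochondrially encoded genes, rose in 61 of 78 in cycling cells and 70 of 78 in early erythroid-like cells, but in 5 of 76 in TTEX-like cells, where 2 fell. Of the genes that copy and transcribe mitochondrial DNA, 4 of 12 rose in cycling cells (Lrpprc, Slirp, Ssbp1 and Tfam), a share near that of all genes, and 10 of 12 in early erythroid-like cells, and Mterf1a fell in both. In TTEX-like cells 0 of 8 tested rose and 1 fell, Polg, the replicative polymerase (-1.63), which is near the 11.9% of all genes. From early to late erythroid-like cells 73 of 78 mitochondrial ribosomal genes, 9 of 12 genes of mitochondrial DNA, 11 of 13 citric acid cycle genes and 8 of 9 complex II and carrier genes fell under both scalings, where 36.9% of all genes fell with TMM and 54.0% without. The mitochondrial clearance genes went the other way: Bnip3l (5.46), the mitophagy receptor of red cells, Gabarapl2 (5.002), Ulk1 (4.99), Map1lc3b (4.88) and Pink1 (4.44) rose, 5 of 8 tested, and Fundc1 fell, under both scalings, with the log2 changes given on the TMM scale. Over all genes 23.9% rose with TMM and 17.2% without. Bnip3l is also one of the markers that named the late cells, so its rise is not a result, nor is its place in the 5 of 8. Factors that assemble cytochrome c oxidase (17, of which 15 were tested here) changed both ways in TTEX-like cells. Cmc2, Pet100 and Cox17 rose and Cox11 and Cox14 fell, for so few genes near the shares of all genes. Among 5 tested regulators of mitochondrial biogenesis, 1 rose in TTEX-like cells, Myc (1.38), for so few genes near the 12.2% of all genes.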

How the data were processed

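The deposited files hold raw UMI counts per gene and barcode, which per the submitters' processing notes the authors made with Cell Ranger 6.1.2 on mm10. A barcode needed 500 genes and 1000 UMIs, and no more than 10% of its UMIs could be mitochondrial (11632 of 15784 passed), and the 438 with the highest Scrublet scores (0.8% per 1000 barcodes of each library) were removed as doublets. Gene UMIs per library ranged from 17693991 to 55045903. Cells were clustered with Seurat 5.3.0 without the 103 genes and without other mitochondrially encoded genes. Classes were named from markers ("-like") when at least 3 were raised, and clusters without such support stay unnamed, so names may differ from those of the study. Counts were summed per library and class before testing in edgeR 4.0.16 (quasi-likelihood test, TMM scaling, low counts filtered, Benjamini-Hochberg adjustment over all genes, threshold 0.05). State contrasts had the library as a block, and genotype contrasts had 2 libraries against 2. Fits of TTEX-like and short-term effector-like cells held all CD8 Tc states and clusters with at least 20 cells in every library. Fits of erythroid-like and progenitor-like cells against another class also held further classes. All classes of a fit shared its estimate of spread. The alternatives were DESeq2 1.42.0, other size factors and filters, other mitochondrial limits, doublet calls and clustering resolutions, and leaving out each library. After the data were seen, library sizes without hemoglobin and without TMM and a crossed pairing were added.

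The members and the gene lists were chosen with earlier results of these data known. Genes named are all mitochondrially encoded members, the 2 most counted nuclear genes of each role, up to 4 risen and 4 fallen nuclear genes per contrast with at least 5 CPM (where none passed, those with the smallest p), and the tissue-restricted isoforms. Any other is said to be chosen after its values were seen. The genotype replicate numbers were checked for pairing: deviations of same-numbered libraries correlated at -0.14 in CD8 Tc, 0.02 in CD4 Tc and -0.47 in erythroid-like cells, and nothing in the labels says that a number marks a shared day. The edgeR fits of the genotype contrast in CD8 Tc and of TTEX-like against TPEX-like cells were tested on simulated data. The other fits were not. Cox6a2 and the 4 isoforms at or near 0 UMIs passed the filter in no fit.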

Additional observations from a re-analysis of the deposited data

How the results depend on the processing

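Of 300 counts of members called under alternatives, 265 stayed within 1.5 times the reported count and 35 did not. A reported 0 that stayed 0, as in the genotype contrasts, was taken as unchanged, and direction was not considered. Of 54 shares, 51 stayed within 1 SD. For the genes named, 2500 alternative values kept direction and side of the threshold, 135 lost it, 57 gained it, 86 uncalled values moved and 2 reversed. The causes were not tested. Without the library as a block, calls fell to 0 nuclear and 0 mitochondrially encoded in CD8 against CD4 Tc. They fell to 11 and 7 in TTEX-like cells and 2 and 0 in the short-term effector-like ones. Mitochondrially encoded calls fell to 0 in cycling Tc, 2 in early erythroid-like and 0 in granulocyte-monocyte progenitor-like cells. Over all genes, 4.23% were higher and 6.18% lower without the block in CD8 against CD4 Tc (12.4% and 12.5% with it). TTEX-like cells had 8.31% and 8.1% (12.2% and 11.9%) and short-term effector-like ones 5.53% and 5.33% (8.63% and 7.77%). Cycling Tc had 21.6% and 16.9% (28.5% and 25.3%). Early erythroid-like cells had 31.7% and 42.3% (35% and 45.2%) and progenitors 31% and 34.9% (34.4% and 38.3%). DESeq2 called 16 nuclear and 1 mitochondrially encoded genes in CD8 against CD4 Tc, where it called 7.2% of all genes higher and 7.59% lower. It called 1 mitochondrially encoded gene in progenitors, where its size factors in edgeR also gave 1. Of all genes in progenitors, DESeq2 called 34.6% higher and 35.7% lower, and its size factors in edgeR gave 35.7% and 36.9%. No filter on low counts gave 8 mitochondrially encoded genes in cycling Tc and 2 between genotypes in CD8 Tc and in erythroid-like cells. Of all genes it gave 14.8% higher and 17.6% lower in cycling Tc. Between genotypes it gave 0.274% and 0.286% in CD8 Tc and 0.351% and 0.267% in erythroid-like cells. Scrublet's own doublet calls gave 3 mitochondrially encoded genes in cycling Tc, where 28.3% of all genes rose and 24.7% fell. Without a mitochondrial limit, 8 nuclear genes were called in short-term effector-like cells, where 5.6% of all genes rose and 8.53% fell. In progenitors, 6 mitochondrially encoded ones were called, where 35.7% of all genes rose and 36.7% fell. The mitochondrially encoded share of progenitors became 3.89%. With a 5% limit, 2 were called in short-term effector-like cells, where 7.5% of all genes rose and 6.36% fell. Late erythroid-like shares without hemoglobin were 1.68% nuclear and 1.51% mitochondrially encoded. The reversals were mt-Co2 in late erythroid-like cells (-0.74 without hemoglobin and TMM) and mt-Nd6 in progenitors (0.0845 without a mitochondrial limit).

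Leaving out each library gave, for nuclear and mitochondrially encoded genes, 13 to 22 and 0 to 3 calls in CD8 against CD4 Tc. The ranges were 25 to 31 and 12 to 13 in TTEX-like and 3 to 13 and 3 to 10 in short-term effector-like cells. They were 70 to 74 and 3 to 6 in cycling and 58 to 65 and 4 to 5 in early erythroid-like cells. In late erythroid-like cells they were 56 to 60 and 7 to 9, and in progenitor-like cells 60 to 68 and 0 to 3. In each of these comparisons the share of all genes that rose was also smaller than in the full fit, whichever library was left out.

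Equal replicate numbers of the genotypes gave no sign of pairing, and with the replicate block 0 members were called in CD8 Tc, CD4 Tc or erythroid-like cells (all genes: 0, 5 and 0). With 2 libraries per genotype, the correlation of -0.47 in erythroid-like cells means that libraries with unlike numbers deviated alike. Why they did was not tested. The crossed pairing, chosen after seeing the data, called 62 genes in CD8 Tc, 2 of them mitochondrially encoded members, and 25 in erythroid-like cells. Libraries of thin classes limit low genes: Ndufaf5, Ndufaf6 and Ndufaf7 rest on 0 or 1 late UMIs.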

Other observations

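Classes not set against another on their own also held the members. Some of their cells entered the sums of wider classes. As the mean ± SD of 4 libraries, unstaged erythroid-like cells (591) had a nuclear share of 2.81 ± 0.0550% and a mitochondrially encoded share of 2.50 ± 1.01%, and intermediate erythroid-like cells (254) had 1.17 ± 0.112% and 0.859 ± 0.326%. Basophil or mast-like cells (180) had 2.48 ± 0.197% and 2.97 ± 0.574%, dendritic-like cells (74) 2.54 ± 0.546% and 2.49 ± 0.932%, and plasma cell-like cells (98) 0.879 ± 0.164% and 1.498 ± 0.625%. Of the clusters left without a name, one of 337 cells outside the Tc had 2.55 ± 0.111% and 3.56 ± 0.716%, with Cox6b2 at 122 CPM, and one of 364 CD8 Tc had 2.55 ± 0.2005% and 2.85 ± 0.616%.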
